A study of Rattus norvegicus with 6 samples.

Results

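The cell cycle cyclins are 9 rat genes, 3 of the D type (Ccnd1, Ccnd2 and Ccnd3), 2 of the E type (Ccne1 and Ccne2), 1 of the A type (Ccna2), 2 of the B type (Ccnb1 and Ccnb2) and Ccnf. They were chosen by gene symbol from the platform's annotation of the array, and all 9 were measured, by 13 probe sets, out of 14217 genes and 31042 probe sets in all. Where a gene had several probe sets, the one with the highest mean of the 6 arrays represents it, and the others are given beside it. The study used Affymetrix rat arrays on RNA of NRK-52E cells, an established epithelial line from rat kidney tubule. On 3 arrays the cells carried a lentiviral short hairpin RNA (shRNA) directed at AMPKα2, a catalytic subunit of AMP-activated protein kinase, which senses cellular energy, and had received TGF-β1, a cytokine that drives epithelial cells towards a mesenchymal state. On the other 3 arrays they carried a control lentivirus and had received the same TGF-β1. The dose was 10 ng/mL for 24 h in all 6, so no cells without TGF-β1 enter any value here, and no source used here gives the promoter that drives the hairpin. The labels call the arrays biological replicates without naming separate cultures, so a p-value measures only the spread between these arrays.

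Cyclins are the regulatory subunits of cyclin-dependent kinases (CDKs), and most of them are made and destroyed once per division. D-type cyclins answer growth signals in the G1 phase and, with CDK4 or CDK6, phosphorylate the retinoblastoma protein, which frees E2F factors to switch on the E cyclins and, with CDK2, DNA replication. Cyclin A acts through S phase and G2, and B cyclins with CDK1 drive entry into mitosis, after which the anaphase-promoting complex marks them for destruction. Cyclin F binds no CDK and is the substrate-recognition subunit of an SCF ubiquitin ligase.

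Before the cyclins, the labels and the scale were checked. Prkaa2, the targeted gene, stood at 6.64, 6.76 and 6.49 (log2) on the AMPKα2 shRNA arrays, against 6.83, 6.79 and 6.89 on the control arrays. The difference of -0.21 (SE 0.09) missed the threshold (limma, adjusted p = 0.0552), so a lower transcript of the target was not shown and the groups are named as labelled. The values spanned a narrower range on the AMPKα2 shRNA arrays, with an SD over probe sets of 1.76 to 1.82, against 2.17 to 2.19 on the control arrays. Spiked control RNAs, which were not tested as a group, had mean changes of their probe sets (AMPKα2 shRNA minus control) of -1.03 for bioB, -0.82 for bioC, -0.73 for bioD and 0.11 for cre, and between -1.29 (phe) and -1.12 (dap) for dap, lys, phe and thr. The part of these shifts in the cyclin results was not tested. Each cyclin is therefore also given after quantile normalization and after cyclic loess, which bring the arrays to a common distribution or trend, and after median centring. Of 9 measured epithelial markers, 1 lay above the median control level of all genes, 6.995, on the control arrays (Krt8, at 12.24 with the hairpin and 12.49 in controls). Pax8 stood at 7.77 with the hairpin and 6.565 in controls. Krt18 (3.86 with the hairpin and 3.53 in controls) and Epcam (3.47 with it and 2.97 in controls) were low in both groups. Of these 9 markers 1 passed as lower and 7 as higher. The summed linear level of the list was 4945 to 5540 on the AMPKα2 shRNA arrays and 5892 to 6186 on the control arrays. That sum was mostly Krt8, the marker that passed as lower, and says little of the other markers. None of the 4 fibroblast, 3 endothelial or 4 leukocyte markers measured reached that median level on the control arrays. All 4 fibroblast and all 4 leukocyte markers and 2 of the endothelial ones passed as higher with the hairpin. So did 43.6% of all genes, while 41.5% passed as lower. Genes at control levels of 4 to 5 and 5 to 6, where most of these markers lie, had median changes of 0.79 and 0.81. With the hairpin the summed levels were 243 to 273 for fibroblast, 88.1 to 114 for endothelial and 322 to 349.9 for leukocyte markers. In controls they were 132 to 134 for fibroblast, 62.5 to 83.3 for endothelial and 156 to 164 for leukocyte markers. The part of other cell types in the results below was not tested.

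Cyclins of the E, A and B types and Ccnd1 were lower in cells with the AMPKα2 hairpin, by 4.43 to 16.5 times on the linear scale as deposited. Their log2 fold changes ran from -4.04 to -2.15 as deposited and from -3.39 to -1.52 after cyclic loess. Of the 9 genes, 8 passed as lower and 1, Ccnd3, as higher (limma, adjusted p under 0.05 over all genes), but Ccnd2 and Ccnf, with the smallest falls, did not keep that direction after quantile normalization or cyclic loess. Among all genes 41.5% passed as lower and 43.6% as higher. At the control levels of the cyclins more genes passed as lower. The shares were 58.4% at 7 to 8, 82.6% at 9 to 10, 80.5% at 10 to 11 and 64.95% at 12 to 13. The count of 8 by itself therefore says little. At least a 2-fold fall was seen in 6 of the 9, against 18.6% of all genes. The median log2 fold change of the 9 was -2.73, and that of all genes was 0.05. The 2 groups of arrays did not overlap for any of the 9 cyclins, nor for 87.1% of all genes, so separation of the arrays by itself says little here. In all 4 scalings 6 cyclins passed as lower (Ccnd1, Ccne1, Ccne2, Ccna2, Ccnb1 and Ccnb2), against 26.4% of all genes, and none passed as higher in all 4, against 25.5%. After quantile normalization 6 of the 9 were lower and 2 higher (28.9% and 43.8% of all genes), with cyclic loess again 6 and 2 (31.5% and 40.2%), and with median centring 8 and 0 (48.2% and 35.0%). Since RNA came from whole cultures, fewer cells in the phase that makes a cyclin and less of its RNA per cell cannot be told apart.

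**Figure D1:**
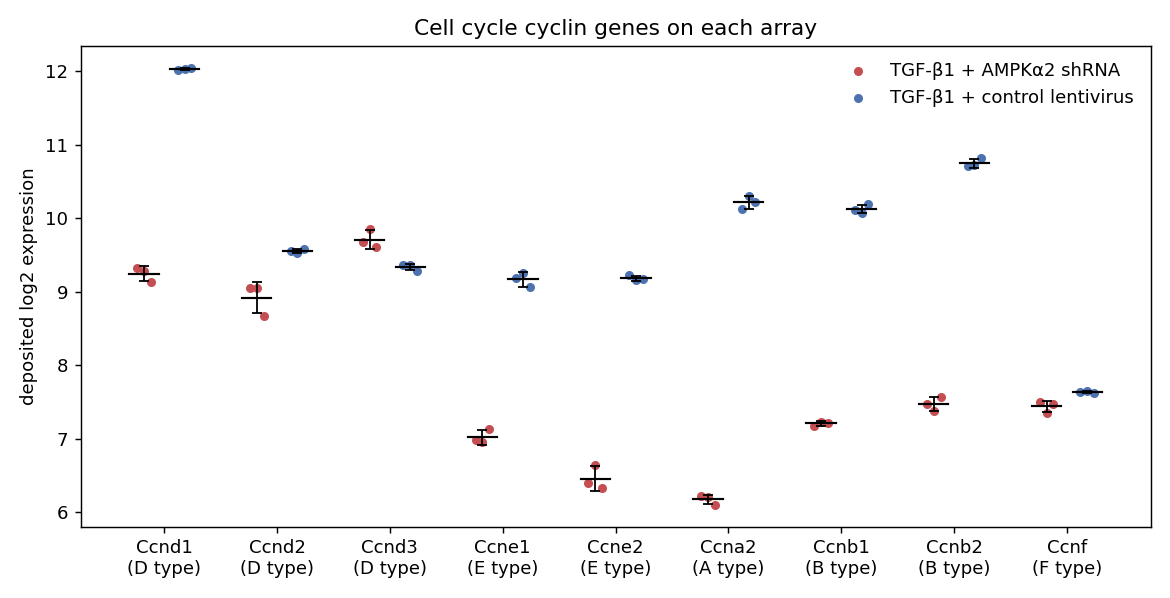
Deposited log2 expression of the 9 cyclin genes on each array, with TGF-β1 plus AMPKα2 shRNA in red on the left of each pair and TGF-β1 plus control lentivirus in blue on the right. Bars are the mean ± SD of 3 arrays, and the pairs for Ccnd1, Ccne1, Ccne2, Ccna2, Ccnb1 and Ccnb2 lie more than 2 log2 units apart.

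Promoter sequence was at hand for 5 of the 9 genes (Ccnb1, Ccnb2, Ccne1, Ccnf and Ccnd3), in RefSeq windows of 250 bases before to 50 after a transcript start on rat build GRCr8. Cyclin promoters are known for the CCAAT box bound by NF-Y, the CHR element bound by the DREAM and MuvB complexes, E2F sites, and the CRE bound by CREB. The 200 bases before the start, 5′ to 3′ on the gene's strand, are printed for the pair of B cyclins, which fell, and for Ccnf and Ccnd3, which did not fall in all 4 scalings, to set their letters side by side. Capitals mark every match to 1 of these motifs.
Ccnb1: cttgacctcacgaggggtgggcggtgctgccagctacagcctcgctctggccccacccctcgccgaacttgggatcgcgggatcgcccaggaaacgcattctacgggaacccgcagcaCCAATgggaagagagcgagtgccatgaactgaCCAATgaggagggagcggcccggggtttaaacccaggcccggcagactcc
Ccnb2: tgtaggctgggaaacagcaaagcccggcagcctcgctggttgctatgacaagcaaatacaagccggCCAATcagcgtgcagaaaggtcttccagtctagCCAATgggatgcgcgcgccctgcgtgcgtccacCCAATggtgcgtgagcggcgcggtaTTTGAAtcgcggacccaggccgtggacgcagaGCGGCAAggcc
Ccnf: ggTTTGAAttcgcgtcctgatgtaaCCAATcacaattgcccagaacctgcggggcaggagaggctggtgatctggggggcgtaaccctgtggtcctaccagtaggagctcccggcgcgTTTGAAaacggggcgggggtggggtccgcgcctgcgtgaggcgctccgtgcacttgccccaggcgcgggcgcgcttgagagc
Ccnd3: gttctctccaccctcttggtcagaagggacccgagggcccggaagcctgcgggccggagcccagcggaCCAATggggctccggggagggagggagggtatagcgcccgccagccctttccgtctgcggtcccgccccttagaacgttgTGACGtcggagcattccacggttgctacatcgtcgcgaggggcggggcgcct
These are chr2:33655226-33655425 (Ccnb1), chr8:79981659-79981858 (Ccnb2), chr10:13783670-13783869 (Ccnf) and chr9:20897876-20898075 (Ccnd3), each on the minus strand. Of the Ccnb2 stretch, 59 bases lie within the outer bounds of the gene, and the whole Ccnd3 stretch does, because longer transcripts start further upstream.

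The B cyclin promoters held several CCAAT boxes close to the start. Ccnb1 had 2, with first bases at -82 and -50, and Ccnb2 had 3, at -134, -101 and -68, followed by a CHR (TTTGAA) at -43 and the letters of an E2F site (TTGCCGC, on the other strand) at -11. Ccnb2 also held a TTTGAA at -214, just outside the printed stretch. Ccnf held the same kinds of letters further out, CCAAT at -215 and -175 and TTTGAA at -198 and -82. Ccnd3 had 1 CCAAT at -132 and TGACG, the core of a CRE, at -52. None of the searched letters lay in the Ccne1 window, which says nothing about factors that bind other letters. Both strands were searched for CCAAT and for TGACG. The CHR was sought as TTTGAA and its variant TTCGAA. The E2F site was sought as TTGCCGC, with the variant TTGGCGC, the variant TTCCCGC and the variant TTCGCGC. No matches of different motifs overlapped in these windows. Of 33469 promoter windows, 37.5% held CCAAT, 19.7% a CHR, 9.52% an E2F match and 21.2% TGACG. Letters of CCAAT and CHR thus stood both in Ccnb2, which fell in all 4 scalings, and in Ccnf, which did not.

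**Figure D2:**
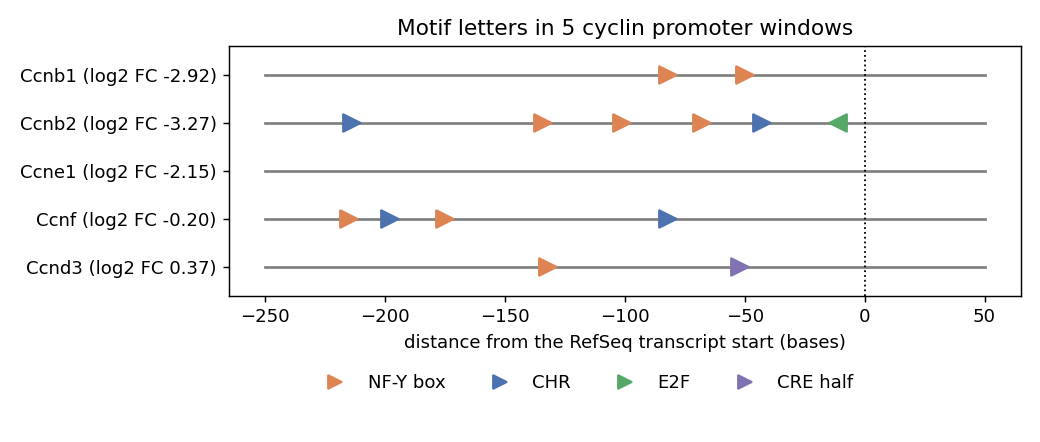
Matches to 4 motifs in the 5 promoter windows, by distance of the first matched base from the RefSeq transcript start (dotted line), with arrows for the strand and each gene's log2 fold change as deposited. NF-Y box stands for CCAAT, and Ccnb1 and Ccnb2 have 2 and 3 of them within 134 bases of the start.

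The D-type genes parted. Ccnd1, which encodes cyclin D1, the G1 cyclin most tied to growth factor and Wnt signals, read 9.33, 9.28 and 9.13 (log2) on the AMPKα2 shRNA arrays, against 12.02, 12.03 and 12.05 on the control arrays. It fell by 2.79 on the log2 scale (SE 0.08, 95% interval -2.97 to -2.60, limma, adjusted p = 1.98e-09), a control level 6.90 times as high. The other probe sets of Ccnd1 fell too, with log2 fold changes of -2.16 and -1.94. After quantile normalization and cyclic loess the main probe set had -2.34 and -2.20. Genes with a control level of 12 to 13 had a median change of -0.32, so Ccnd1 lay below the median of genes of its own level. Its fall ranked 102 from the lowest among 14217 genes.

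Ccnd2, which encodes cyclin D2, read 9.05, 9.05 and 8.67 on the AMPKα2 shRNA arrays, against 9.55, 9.52 and 9.58 on the control arrays. All 3 hairpin arrays were lower, with replicate 3 apart from the other 2. The log2 fold change of -0.63 (SE 0.11) passed as deposited (limma, adjusted p = 0.000245), while after quantile normalization (0.12) and cyclic loess (0.09) the change had the opposite sign and did not pass. After median centring the change of Ccnd2 was -0.85 and passed as lower. Ccnd3, which encodes cyclin D3, read 9.67, 9.85 and 9.61 on the AMPKα2 shRNA arrays, against 9.36, 9.37 and 9.29 on the control arrays. This rise of 0.37 passed (SE 0.09, limma, adjusted p = 0.00247), a level 1.30 times as high with the hairpin. After quantile normalization and cyclic loess the rise was 1.09 and 1.08, and after median centring the change of 0.16 did not pass. Genes at control levels of 9 to 10, where both Ccnd2 and Ccnd3 lie, had a median change of -0.90 as deposited and 82.6% of them passed as lower.

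The changes of the D cyclins were also set against each other within each array, which removes any shift shared by the genes of an array. The change of Ccnd1 was lower than that of Ccnd2 by a log2 difference of -2.16 (95% interval -2.35 to -1.96) and lower than that of Ccnd3 by -3.16 (-3.36 to -2.96). Between Ccnd2 and Ccnd3 the difference was -1.01 (-1.28 to -0.73). After quantile normalization these differences were -2.46, -3.42 and -0.97, and after cyclic loess -2.28, -3.27 and -0.99. Each gave p = 0.1 in an exact 2-sided permutation test, the smallest p that 3 arrays against 3 allow, and 0.1 after adjustment over the 5 pairs of same-type cyclins compared, so none could pass.

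The E cyclins, partners of CDK2 at the start of DNA replication, were lower together. Ccne1 read 6.98, 6.95 and 7.14 on the AMPKα2 shRNA arrays, against 9.19, 9.26 and 9.06 on the control arrays. It fell by 2.15 (SE 0.09, limma, adjusted p = 1.05e-08), a control level 4.43 times as high. Ccne2 read 6.40, 6.64 and 6.33 on the AMPKα2 shRNA arrays, against 9.22, 9.16 and 9.17 on the control arrays. No hairpin array came near the control range for either gene. Ccne2 fell by 2.73 (SE 0.10, limma, adjusted p = 3.92e-09), a control level 6.62 times as high. The other probe set of Ccne2, at 5.04 with the hairpin and 4.90 in controls, changed by 0.13 as deposited, which missed the threshold. That probe set had -0.31 after quantile normalization and -0.47 after cyclic loess, both of which passed. After quantile normalization the changes of Ccne1 and Ccne2 were -1.57 and -2.33, and after cyclic loess -1.52 and -2.16. Between the main probe sets, the change of Ccne1 was the smaller one by 0.58 (95% interval 0.14 to 1.02, exact permutation p = 0.1). With the mean of its probe sets Ccne2 had -1.30, a smaller change than the -2.15 of Ccne1, so their order depends on the probe set.

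Ccna2, which encodes cyclin A2, the partner of CDK2 and then CDK1 from S phase on, had the largest change of the 9. It read 6.21, 6.21 and 6.10 on the AMPKα2 shRNA arrays, against 10.13, 10.30 and 10.22 on the control arrays. The single probe set fell by 4.04 (SE 0.08, 95% interval -4.23 to -3.86, limma, adjusted p = 6.09e-10), a control level 16.5 times as high and the fall that ranked 3 from the lowest among 14217 genes. It had -3.77 after quantile normalization and -3.39 after cyclic loess. Ccna1, a cyclin known mainly from male germ cells, rose by 1.11, at 5.42 with the hairpin and 4.31 in controls, where genes of that level had a median change of 0.79. Cyclic loess left a rise of 0.51 and quantile normalization one of 0.66.

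The B cyclins, which encode the mitotic partners of CDK1, fell as well. Ccnb1 read 7.17, 7.23 and 7.22 on the AMPKα2 shRNA arrays, against 10.11, 10.08 and 10.19 on the control arrays. It fell by 2.92 (SE 0.08, limma, adjusted p = 1.05e-09), and its other probe set fell by 2.84. Ccnb2 read 7.48, 7.38 and 7.57 on the AMPKα2 shRNA arrays, against 10.71, 10.72 and 10.82 on the control arrays. It fell by 3.27 (SE 0.09, limma, adjusted p = 1.05e-09). Control levels were thus 7.56 and 9.67 times as high as those with the hairpin for Ccnb1 and Ccnb2, whose promoters are printed above. Quantile normalization gave -2.32 and -2.70, and cyclic loess gave -2.21 and -2.55. Genes with control levels of 10 to 11, the range of Ccna2, Ccnb1 and Ccnb2, had a median change of -0.84 with the deposited values, -0.18 with quantile normalization and -0.19 with cyclic loess. Between the B cyclins the difference of change was 0.36 (Ccnb1 minus Ccnb2, 95% interval 0.18 to 0.53, exact permutation p = 0.1).

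Ccnf, which encodes cyclin F, changed least in the deposited values, while Ccnd2 did after quantile normalization and cyclic loess and Ccnd3 after median centring. It read 7.50, 7.35 and 7.47 on the AMPKα2 shRNA arrays, against 7.63, 7.65 and 7.63 on the control arrays, with a gap between the groups slightly smaller than the range among the hairpin arrays. The log2 fold change of -0.20 (SE 0.08) passed narrowly over genes (limma, adjusted p = 0.0416) and did not pass over probe sets (adjusted p = 0.0527). After quantile normalization (0.32) and cyclic loess (0.27) Ccnf passed as higher, and after median centring (-0.41) as lower. Without AMPKα2 shRNA replicate 2, or without any single control array, it did not pass. Genes at control levels of 7 to 8, the range of Ccnf, had a median change of -0.39 as deposited, and 58.4% of them passed as lower. No direction was settled for Ccnf. Over the 13 probe sets of the 9 genes, 10 passed as lower and 1 as higher, against 34.1% and 47.8% of all probe sets.

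**Figure D3:**
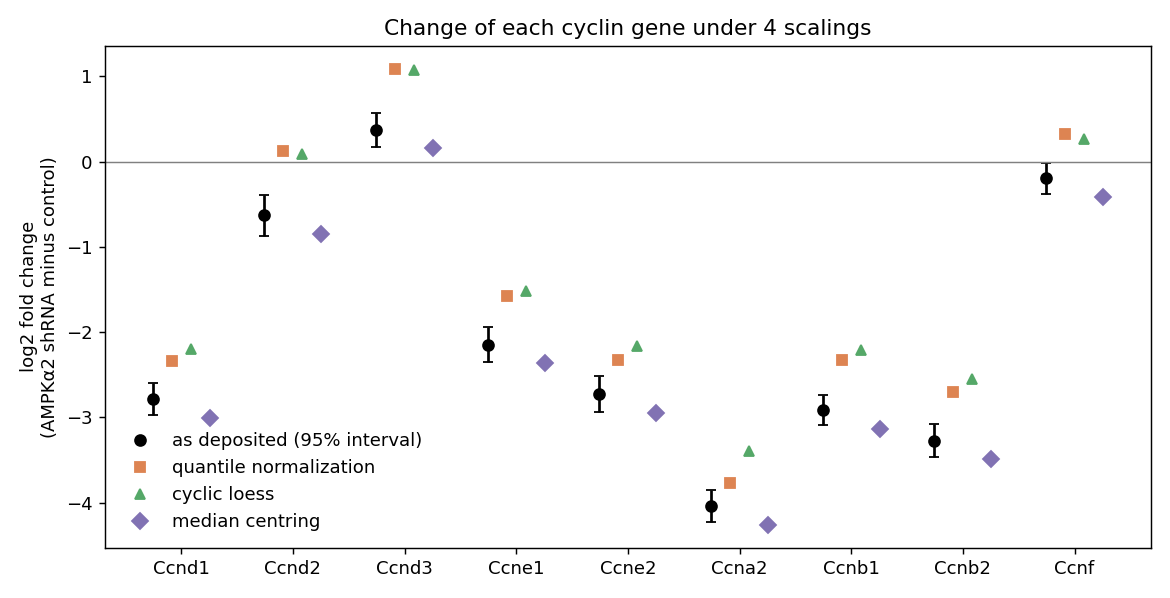
Log2 fold change (AMPKα2 shRNA minus control) of each cyclin gene as deposited, with its 95% interval from limma, and after 3 other scalings. Ccnd1, Ccne1, Ccne2, Ccna2, Ccnb1 and Ccnb2 lie below -1.5 in all 4, while Ccnd2 and Ccnf lie on both sides of 0.

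**Figure D4:**
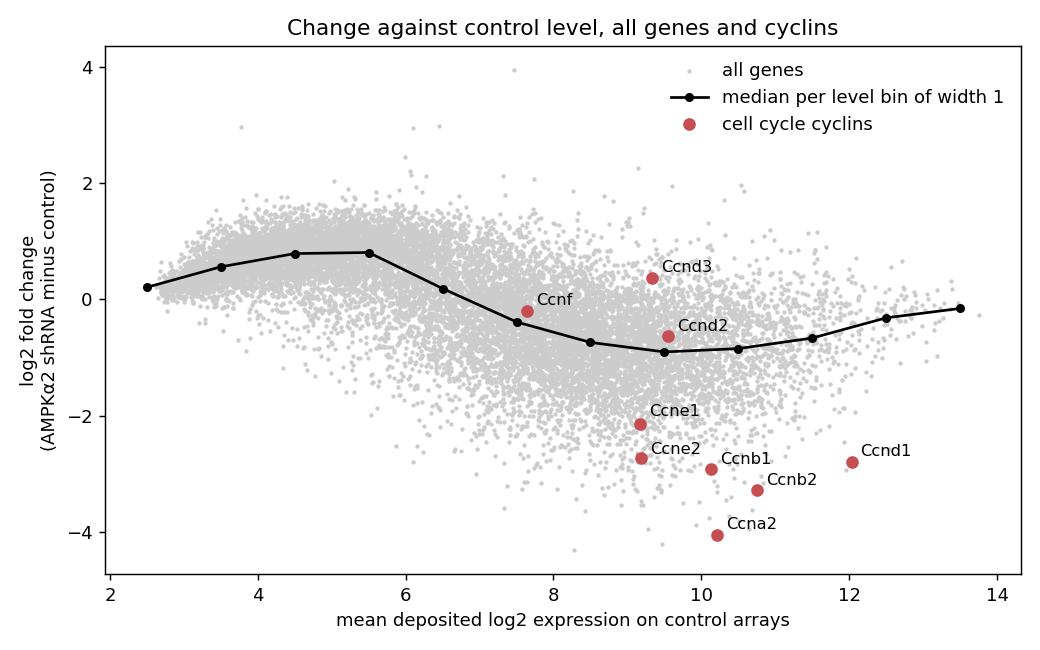
Log2 fold change against the mean control level for all 14217 genes (grey), with the median in level bins of width 1 (black) and the 9 cyclins (red). The bin median is 0.81 at levels of 5 to 6 and -0.90 at 9 to 10, and Ccna2 lies at -4.04.

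Of the kinases that cyclins bind, Cdk1 and Cdk2 fell, while Cdk4 and Cdk6 had no call that held in all 4 scalings. Cdk1, the mitotic kinase, stood at 8.68 with the hairpin and 10.94 in controls and fell by 2.27 (SE 0.10, limma, adjusted p = 1.57e-08). Cdk2, partner of the E and A cyclins, stood at 7.05 with the hairpin and 9.21 in controls and fell by 2.16 (SE 0.10), and its other probe set fell by 2.94. Both kept their fall in all 4 scalings. Cdk4, a partner of D cyclins, had 0.10 as deposited, which missed the threshold, passed as higher after quantile normalization (0.64) and cyclic loess (0.70), and had -0.11, which did not pass, after median centring. Cdk6, the other D-type partner, had 0.60 at a control level of 5.18, which passed as deposited and did not pass after quantile normalization (0.25) or cyclic loess (0.05). Genes at control levels of 5 to 6 had a median change of 0.81 as deposited.

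Of 8 measured genes of the CDK inhibitor list, 4 passed as lower, 2 as higher and 2 missed the threshold, and their median was -0.21. After quantile normalization 3 were lower and 3 higher. The shares over all genes were 41.5% lower and 43.6% higher as deposited, and 28.9% and 43.8% after quantile normalization. Cdkn3, a phosphatase that acts on CDKs, fell by 3.54, and Cdkn2d, an inhibitor of CDK4 and CDK6, fell by 1.34, with -0.81 after both quantile normalization and cyclic loess. Cdkn1c and Cdkn2b, which encode p57 and p15, rose by 1.17 and 0.86, and by 0.58 and 0.54 after cyclic loess. Genes at their control levels, 4 to 5 and 5 to 6, had median changes of 0.79 and 0.81 as deposited. Cdkn1a, which encodes p21, had 0.12 as deposited, which did not pass, 0.77 after both quantile normalization and cyclic loess, which passed, and -0.10 after median centring, which did not. The other probe set of Cdkn1a had -0.33, which passed, so its probe sets disagreed. Cdkn1b, which encodes p27, had -0.53, which passed, and 0.07 and 0.10 after quantile normalization and cyclic loess, which did not.

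Among 9 measured genes that switch cyclin kinases on or hold them back, 6 passed as lower, 2 as higher and 1 did not pass. After quantile normalization 4 were lower and 5 higher. For all genes the shares were 41.5% lower and 43.6% higher as deposited, and 28.9% and 43.8% after quantile normalization. Wee1, the kinase that restrains CDK1, fell by 2.22, and its other probe set had -0.32. Cks2, a small CDK-binding subunit, fell by 1.82. Cyclic loess gave it -1.13 and quantile normalization -1.16. Cdc25b, a phosphatase that activates CDKs, rose by 0.95 from a low control level of 3.85, and by 0.50 and 0.45 after quantile normalization and cyclic loess. Genes at control levels of 3 to 4 had median changes of 0.56 as deposited, and 0.19 and 0.16 after quantile normalization and cyclic loess. Cdk7, the kinase of the CDK-activating complex, rose by 0.58, and by 1.25 and 1.26 after those scalings.

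Of 24 measured genes of cyclin destruction, 18 passed as lower, 2 as higher and 4 did not pass, and after quantile normalization 10 were lower and 9 higher, with a median of -0.52 and -0.02. Beside these stand 41.5% lower and 43.6% higher among all genes as deposited, and 28.9% and 43.8% after quantile normalization. Of genes with control levels of 8 to 9, 76.4% passed as lower as deposited. Ube2c, the ubiquitin-conjugating enzyme of the anaphase-promoting complex, fell by 2.78, and Fbxo5, an inhibitor of that complex, fell by 2.31. Cdc20, the mitotic activator of the complex, fell by 2.18, and 3 of its 4 other probe sets fell as well while the fourth passed at 0.34. Fzr1, its activator in G1, had -0.35 as deposited but 0.35 and 0.32 after quantile normalization and cyclic loess. Fbxw7, which brings cyclin E to an SCF ligase, fell by 0.57. The complex subunit gene Anapc7 and the SCF subunit gene Skp1 rose by 0.62 and 0.34, and by 1.25 and 0.73 after cyclic loess, and Skp1 did not pass after median centring (0.13).

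Of 27 measured factors that control transcription of cyclin genes, 23 passed as lower, 2 as higher and 2 missed the threshold, and their median was -1.48, and after quantile normalization 20 were lower and 4 higher, with a median of -1.03. Among all genes 41.5% were lower and 43.6% higher as deposited, and 28.9% and 43.8% after quantile normalization. Lin54, the MuvB subunit that binds the CHR element, fell by 3.26, from a single probe set. CHR letters were found in the Ccnb2 and Ccnf windows and not in those of Ccnb1, Ccne1 and Ccnd3. A link between Lin54 and the cyclin changes was not tested. E2f8, an E2F repressor, fell by 2.50. Mybl2 and Foxm1, which act with MuvB on G2 and mitotic genes, had -1.78 and -1.65. Rb1, the retinoblastoma gene, and Myc fell as well, at -1.17 and -1.54, and Myc had -0.89 after quantile normalization and cyclic loess. E2f1 had -0.20, which did not pass, and -0.41 after median centring, which did. E2f4 had -0.39, which passed, with 0.37 after quantile normalization, which passed, and 0.34 after cyclic loess, which did not. Mycn and the MuvB gene Lin37 rose by 1.29 and 1.07, and by 0.82 and 1.71 after cyclic loess. Genes at control levels of 5 to 6, the range of Mycn, had median changes of 0.81 as deposited and 0.37 after cyclic loess. For levels of 7 to 8, the range of Lin37, the medians were -0.39 and -0.03.

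Other members of the cyclin family served as a comparison. Of 17 measured, 10 passed as lower, 5 as higher and 2 missed the threshold, and their median was -0.28. After quantile normalization 6 were lower and 8 higher, with a median of 0.11. Over all genes 41.5% passed as lower and 43.6% as higher as deposited, and 28.9% and 43.8% after quantile normalization. For the 9 cell cycle cyclins the corresponding medians were -2.73 and -2.32. Ccng1, a p53-responsive cyclin, fell by 2.93 and Ccnyl1 fell by 2.78, falls close in size to that of Ccnb1. Cables1, which encodes a CDK-binding protein, rose by 1.08, and by 0.54 after cyclic loess. Its control level was 5.01, and genes at levels of 5 to 6 had median changes of 0.81 as deposited and 0.37 after cyclic loess. Large falls were thus not limited to cyclins that act in the cell cycle, and the difference between these lists was not tested.

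**Figure D5:**
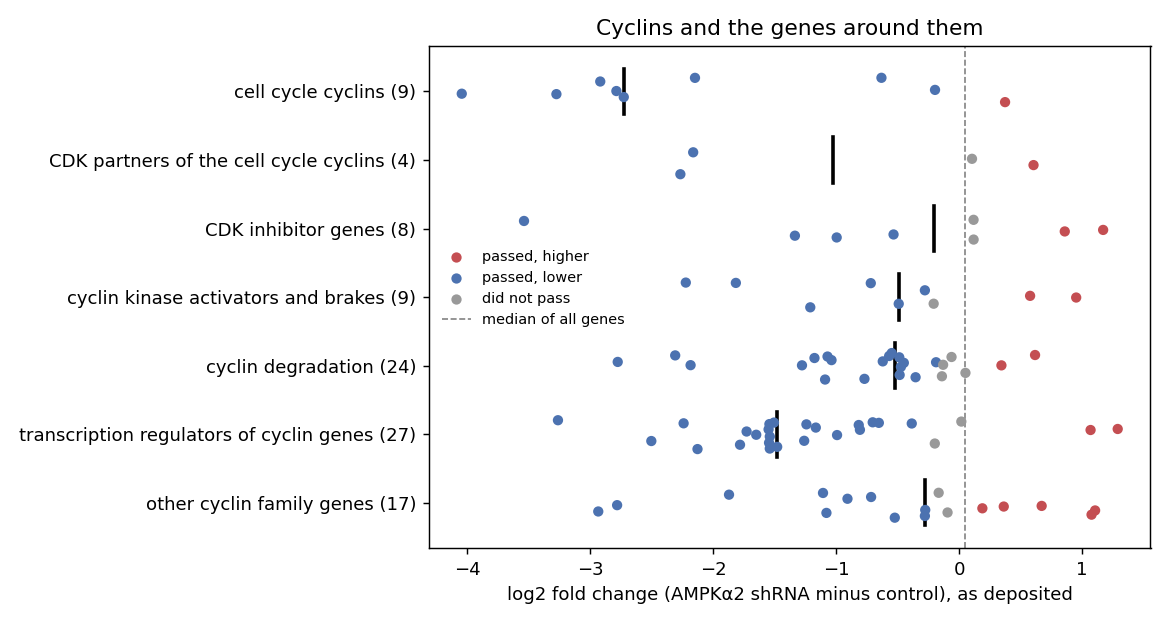
Log2 fold change (AMPKα2 shRNA minus control, as deposited) of each measured gene of the cyclins and of 6 lists around them, with the number of genes in brackets. Colours give the call, black bars the list medians, which run from -2.73 for the cell cycle cyclins to -0.21 for the CDK inhibitors, and the dashed line the median of all genes, 0.05.

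The genes with the most similar profiles were sought among 13974 other named genes, by the root mean square (RMS) difference over 6 arrays of values taken relative to each gene's own control mean. For Ccnd1 these were Ube2c, Aebp2 and Ptprf, at RMS differences of 0.043, 0.046 and 0.047. Ccne1 was most like Pcgf5, Rc3h1 and Terf1, at 0.065, 0.071 and 0.082. The profile of Ccna2 had few near ones, with Rflnb at 0.086, Ets1 at 0.14 and Zfp367 at 0.16. For Ccnb1 the 3 were Dyrk2, Ceacam1 and Dsel, at 0.041, 0.046 and 0.050. With 2 groups, this likeness is mostly likeness in the size of the change.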

How the data were processed

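Trizol-extracted RNA was made into biotinylated cRNA with an Affymetrix one-cycle kit, per the labels' protocols. The authors deposited 1 log2 value per probe set and array, from 2.37 to 13.84; background correction, summary and normalization are not given in the sources used here. Probe sets were named from the platform annotation where it gave a single gene. The brightest probe set by mean stood for each of 14217 genes and was compared between 3 and 3 arrays with limma 3.58.1 (lmFit, eBayes) in R 4.3.3, on the deposited values, with p-values adjusted over all genes by Benjamini-Hochberg and called at 0.05. Fold changes are given as AMPKα2 shRNA minus control, in log2. Alternatives were 3 other scalings, the mean of probe sets, filters at 25% and 50%, an intensity trend, array weights, the replicate block, leaving out each array and a threshold of 0.01. The limma comparison was tested on simulated arrays in which few genes changed and the range did not differ between groups. The number of arrays limits precision. Members and lists were chosen with earlier results of these data known. Named genes were the 9 cyclins, Prkaa2, 4 CDKs, 12 regulators listed by symbol (Skp2 not analysed here), up to 2 rising and 2 falling genes per list, and the 3 nearest profiles for each of 4 cyclins. Protein sequences were not used here.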

Additional observations from a re-analysis of the deposited data

How the results depend on the processing

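Of the 9 cyclins, Ccnd1, Ccne1, Ccne2, Ccna2, Ccnb1 and Ccnb2 passed as lower under every alternative run. Ccne2 had -1.30 with the mean of its probe sets. Cyclins passing as higher numbered 2 with quantile normalization, 2 with cyclic loess and 0 with median centring, and the median log2 fold change of the 9 was -2.32, -2.16 and -2.94. Ccnd2 turned to 0.12 and 0.088, and Ccnf to 0.32 and 0.27, after quantile normalization and cyclic loess, and Ccnd3 did not pass after median centring (0.16). Among other genes, Cdkn1b (0.067 and 0.10), Fzr1 (0.35 and 0.32) and E2f4 (0.37 and 0.34) turned after quantile normalization and cyclic loess, and Cdk4 (-0.11) and Cdkn1a (-0.10) after median centring. The causes, the difference in range between the groups among them, were not tested. Leaving out single arrays gave Ccnf changes from -0.22 to -0.15, and it did not pass in 4 of the 6 fits. With the lowest 50% of genes left out, 6023 genes passed of fewer tested. With the replicate block Ccnf (-0.20, limma, adjusted p = 0.0839) did not pass and no other cyclin call changed. Same-numbered arrays did not deviate together (correlations of -0.02, 0.01 and -0.10). That cannot show whether they shared a culture day, which the labels do not say. Signal over background was not given, so no detection limit can be set.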
